A study of Mus musculus with 5 samples.

Results

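The sterol and fatty acid synthesis genes described here are a fixed list of 36 mouse genes: 18 sterol synthesis enzymes, 6 regulators and sterol carriers, and 12 genes of fatty acid synthesis, elongation and desaturation. They were found on the array through the transcript accession of each probe, and the brightest probe on average stood for a gene that had more than one. A probe was matched for 35 of the 36, of 23779 genes with a probe, and all 35 were well above background on all 5 arrays. Acat2, which encodes a cytosolic thiolase that joins acetyl-CoA units, was the member with no matched probe, and the sterol branch therefore holds 17 measured genes.

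The samples were mouse gastric organoids, clusters of stomach epithelial cells grown in gel, each hybridised to 1 one-colour Agilent array. Organoids recovered from subcutaneous tumours, all with Trp53 loss, formed 3 groups: a knockdown of Cdh1 with 1 of 2 short hairpins (shCdh1 hairpin 1 and hairpin 2, n = 2), the Apc lesion named in the labels (n = 1), and an activating Pik3ca mutation (n = 1). The control (n = 1) was an organoid line from Trp53 flox/flox mice, with the pLKO.1 control vector and the luciferase hairpin shLuc, sampled before subcutaneous inoculation. The labels name no Trp53 loss for it, no age for any animal and no host for the tumours, and they do not say whether the tumours grew from the control line, whether a line was a single clone, or whether the hairpins were separate cultures or animals. Any p-value below therefore measures only the spread between these samples, which may be technical. All 5 samples are labelled as female stomach and shared a medium with the growth factor EGF (50 ng/ml), the Wnt agonist R-spondin1 (250 ng/ml), the BMP inhibitor Noggin (100 ng/ml), the ROCK inhibitor Y27632 (10 µM), the Notch ligand Jagged-1 (1 µM) and the GSK3 inhibitor CHIR-99021 (2.5 µM). The design text counts further tumour-derived organoids, which were not analysed here.

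Cells build cholesterol from acetyl-CoA through mevalonate, isoprenoids, squalene and lanosterol, and build fatty acids from the same acetyl-CoA through malonyl-CoA. Both branches are transcribed under the control of sterol regulatory element-binding proteins (SREBPs), which Scap escorts to the Golgi for cleavage when sterols are low and which Insig proteins hold back in the endoplasmic reticulum when sterols are high. SREBP target promoters usually pair a sterol regulatory element with a box for a co-factor such as NF-Y or Sp1, and Insig1 is itself a target and so a feedback gene of the pathway.

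Promoter windows from RefSeq (GRCm38.p6, 250 bases before to 50 after each transcript start) were in the table for 29 of the 36 members, 38 windows in all. The motif searches used both strands and the letters TCACNCCAC for the sterol regulatory element, CCAAT for the NF-Y box, GGGCGG for the Sp1 box and CACGTG for the E-box, and no match of one motif overlapped a match of another in the members' windows (matches of the same motif on opposite strands can share bases, as in the Fasn window). The sterol regulatory element was found in 1 of 38 member windows (2.63%), against 1.24% of the 32851 windows of the whole table. The NF-Y box was in 65.8% of member windows, against 37.4% of all windows, and within the sterol branch it was in 14 of 18 windows (77.8%). The Sp1 box was in 71.1% of member windows, against 35.7% of all, and the E-box in 18.4%, against 7.15%. These are letter matches in a window and not measured binding. The promoters below belong to Hmgcs1, the member with the sterol regulatory element match at position −137 from the transcript start, to Insig1, Lss and Acss2, the members that differed most between the shCdh1 tumours, and to Scap, 1 of the 3 members that were not higher with hairpin 1. Capitals mark matches to the sterol regulatory element or to the NF-Y box (CCAAT, or ATTGG on the printed strand), and the Scap window, the first of the gene's 2 in the table, has neither.
Hmgcs1 (chr13:119690101-119690400, plus strand): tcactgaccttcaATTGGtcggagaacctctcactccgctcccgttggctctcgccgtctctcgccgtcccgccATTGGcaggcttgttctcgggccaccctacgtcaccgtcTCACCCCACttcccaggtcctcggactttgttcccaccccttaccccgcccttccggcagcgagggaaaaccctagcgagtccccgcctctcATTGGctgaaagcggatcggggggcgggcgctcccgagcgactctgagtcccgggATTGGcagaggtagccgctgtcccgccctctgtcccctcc
Insig1 (chr5:28071162-28071461, plus strand): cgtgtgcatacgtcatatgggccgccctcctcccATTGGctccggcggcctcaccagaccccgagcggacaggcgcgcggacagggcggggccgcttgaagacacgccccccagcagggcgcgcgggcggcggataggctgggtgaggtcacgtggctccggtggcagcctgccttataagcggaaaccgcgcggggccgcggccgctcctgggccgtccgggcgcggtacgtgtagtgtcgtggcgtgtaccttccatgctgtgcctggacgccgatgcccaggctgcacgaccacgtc
Lss (chr10:76531355-76531654, plus strand): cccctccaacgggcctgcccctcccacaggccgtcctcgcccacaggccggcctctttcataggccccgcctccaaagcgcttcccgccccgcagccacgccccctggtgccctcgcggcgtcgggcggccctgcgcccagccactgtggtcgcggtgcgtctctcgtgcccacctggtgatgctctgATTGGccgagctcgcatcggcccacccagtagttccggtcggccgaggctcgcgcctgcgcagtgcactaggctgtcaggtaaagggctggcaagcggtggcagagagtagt
Acss2 (chr2:155517793-155518092, plus strand): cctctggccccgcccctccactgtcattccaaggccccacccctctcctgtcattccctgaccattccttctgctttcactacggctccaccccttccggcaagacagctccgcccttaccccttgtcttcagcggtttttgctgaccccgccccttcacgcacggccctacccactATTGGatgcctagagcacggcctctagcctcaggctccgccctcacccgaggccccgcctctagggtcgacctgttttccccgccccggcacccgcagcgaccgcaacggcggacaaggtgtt
Scap (chr9:110333038-110333337, plus strand): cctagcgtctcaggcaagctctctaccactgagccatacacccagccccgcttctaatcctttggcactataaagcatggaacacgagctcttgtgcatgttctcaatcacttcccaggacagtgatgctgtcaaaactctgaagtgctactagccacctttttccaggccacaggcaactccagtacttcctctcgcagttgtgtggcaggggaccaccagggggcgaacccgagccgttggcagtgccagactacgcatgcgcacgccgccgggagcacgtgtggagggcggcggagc

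The targeted genes and the tissue were checked first. Cdh1, which encodes E-cadherin, had log2 levels of 0.07 and 0.26 in the tumours with hairpins 1 and 2, 4.48 in the Apc tumour and 4.58 in the Pik3ca tumour, against 4.39 in the control; a level here is log2 signal relative to the 75th percentile of its own array. Trp53 was between −5.86 and −4.86 in the tumour-derived arrays, against 0.85 in the control, and the position of its probe relative to the deletion is not known here. Of 16 gastric epithelial marker genes, 15 to 16 were well above background on each tumour-derived array and 16 on the control. The array labelled Pik3ca did not match its sex label: Xist, expressed from the inactive X chromosome, was at −8.14 there, below background, and between −0.90 and −0.69 on the other 4 arrays, while the Y-linked genes Eif2s3y (1.35), Kdm5d (−1.86), Ddx3y (−2.40) and Uty (−3.15) were well above background on that array alone. Every result for the Pik3ca tumour rests on that array. The control and both shCdh1 arrays shared 1 slide and scan, and the Apc and Pik3ca arrays another, so for the Apc or Pik3ca tumour against the control the genotype and the slide cannot be told apart.

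No member of either branch passed the test in any comparison with the control. In the limma comparison of the 4 tumour-derived arrays with the control, 0 of 35 members had a Benjamini-Hochberg adjusted p below 0.05, beside 0.119% of all genes (21 of 17583). At an unadjusted p below 0.05 there was 1 member, Scap (2.86% of members), beside 13.3% of all genes. Member differences ran from −0.65 for Hsd17b7 to 0.73 for Fads1 on the log2 scale, with standard errors of 0.21 to 0.94. When shCdh1, Apc and Pik3ca were each compared with the control in limma, 0 members and 0 genes passed, and no member reached an unadjusted p below 0.05, where 9.74%, 9.02% and 11.5% of all genes did in shCdh1, Apc and Pik3ca. The control's own slide holds the shCdh1 arrays alone of the tumours. There the differences were −0.59 for Scap, −0.58 for Hsd17b7, 0.65 for Srebf2 and 0.73 for Fads1. Their signs were bound to hold, because every tumour had Scap and Hsd17b7 below the control and Srebf2 and Fads1 above it. These signs are therefore no check on the slide.

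What varied was the level among the tumours themselves. For 28 of 35 members (80%), the shCdh1 tumour with hairpin 1 and the Pik3ca tumour were the highest 2 of the 4 tumour-derived arrays, an order that 21.9% of all genes showed. Hairpin 1 was the highest of all 5 arrays for 21 members (60%, beside 19.1% of all genes) and Pik3ca for 11 (31.4%, beside 21.3%). Apc was the lowest for 20 (57.1%, beside 20.4%) and hairpin 2 for 9 (25.7%, beside 16.2%). The control was the highest array for 3 members and the lowest for 5, so that 27 of 35 (77.1%) had tumour-derived arrays on both sides of it. All 4 tumour-derived arrays were above the control for 5 members (14.3%, beside 30.2% of all genes) and below it for 3 (8.57%, beside 24.4%).

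**Figure D1:**
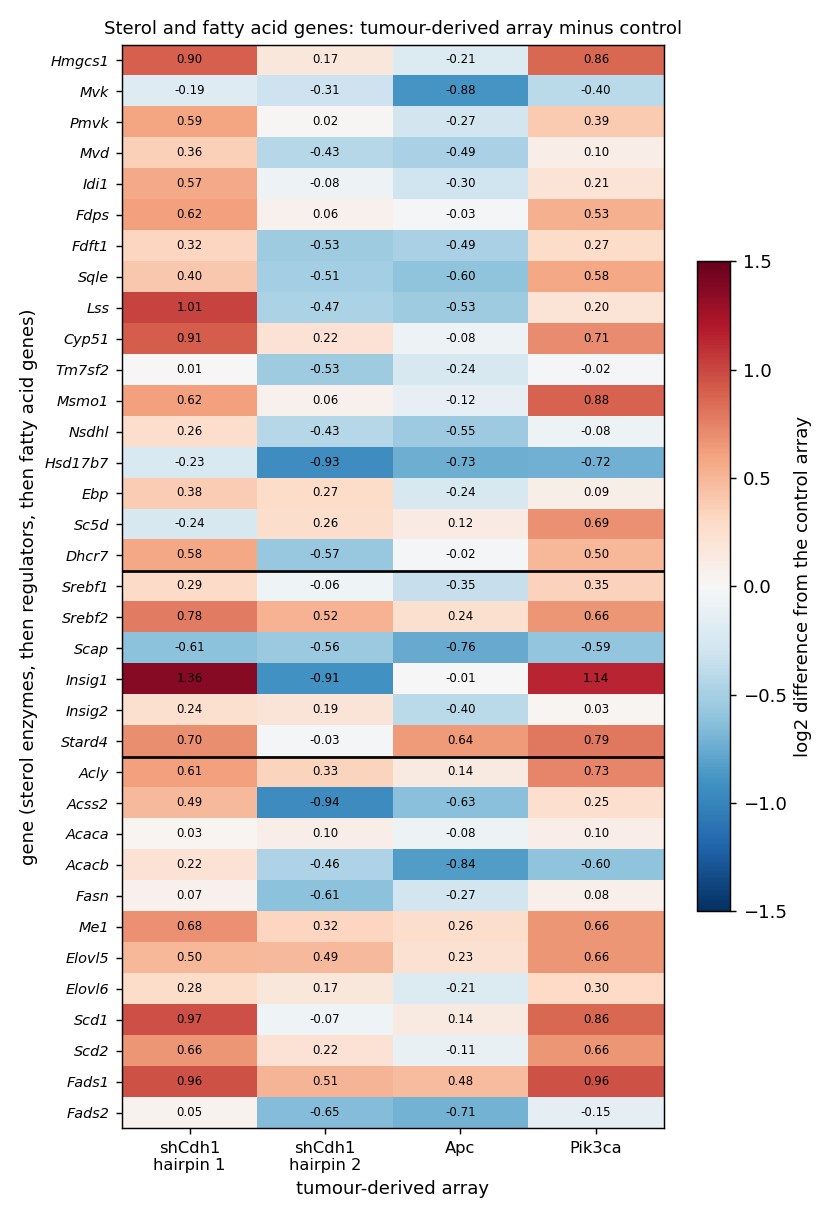
Log2 difference of each tumour-derived array from the control array for the 35 measured members (rows, sterol enzymes above, then regulators and sterol carrier, then fatty acid genes; columns, 1 array each). The hairpin 1 and Pik3ca columns are mostly red (31 and 28 of 35 members above the control, beside 56.2% and 54.3% of all genes). The hairpin 2 and Apc columns are paler or blue (16 and 8 of 35 above, beside 56.2% and 49.3%).

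The sterol branch changed side of the control from array to array. The median difference of its 17 enzymes from the control was 0.40 with hairpin 1, −0.31 with hairpin 2, −0.27 in the Apc tumour and 0.27 in the Pik3ca tumour, the last of which was 0.05 after quantile normalization. In the Apc tumour 16 of the 17 were below the control, with hairpin 2 there were 10 below and 7 above, and in the hairpin 1 and Pik3ca tumours 14 and 13 were above it. Of all genes, 56.2%, 56.2%, 49.3% and 54.3% were above the control with hairpin 1, hairpin 2, Apc and Pik3ca. Over the 4 tumour-derived arrays together the median was 0.10, with 10 enzymes above and 7 below the control, beside a median of 0.06 over all genes.

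The mevalonate steps come first. Hmgcs1, which encodes the cytosolic HMG-CoA synthase and whose promoter is printed above, had log2 levels of 6.37 with hairpin 1, 5.64 with hairpin 2, 5.26 in the Apc tumour and 6.33 in the Pik3ca tumour, against 5.47 in the control (singled out after its values were seen). It was thus higher than the control on 3 of 4 tumour-derived arrays, and the limma difference was 0.43 ± 0.51 (standard error, adjusted p = 0.753). Mvk, the mevalonate kinase, was 1 of 2 sterol enzymes below the control on all 4 tumour-derived arrays, by 0.19 to 0.88 (limma difference −0.44 ± 0.32, adjusted p = 0.603). Its other probe did not show this order, with 0.77, 0.01, −0.30 and −0.01 in the hairpin 1, hairpin 2, Apc and Pik3ca tumours, against 0.19 in the control. Pmvk and Mvd, the next kinase and the decarboxylase that makes isopentenyl diphosphate, and Idi1, which isomerises it, were each highest with hairpin 1 and lowest in the Apc tumour, with ranges over the tumour-derived arrays of 4.87 to 5.74, 1.93 to 2.78 and 3.95 to 4.82, against 5.15, 2.42 and 4.26 in the control. Fdps, the farnesyl diphosphate synthase, followed the same order from 5.78 to 6.44, against 5.81 in the control.

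Squalene and lanosterol enzymes followed. Fdft1, the squalene synthase, ranged from 4.04 to 4.88 in the tumour-derived arrays, against 4.57 in the control, and Sqle, the squalene epoxidase, from 4.08 to 5.26, against 4.68. Lss, which closes squalene epoxide into lanosterol, had levels of 4.64 with hairpin 1, 3.16 with hairpin 2, 3.11 in the Apc tumour and 3.83 in the Pik3ca tumour, against 3.63 in the control. The arrays of the shCdh1 pair thus stood on opposite sides of the control, and hairpin 1 was 2.01-fold above it. The limma difference was 0.05 ± 0.65 (adjusted p = 0.984), and it became −0.27 when hairpin 1 was left out and −0.02 after quantile normalization. Cyp51, the lanosterol demethylase, ranged from 3.49 to 4.48, against 3.57 in the control.

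The later steps convert lanosterol derivatives into cholesterol. Hsd17b7, the keto-reductase of the demethylation steps, was the other sterol enzyme below the control on all 4 tumour-derived arrays, with levels of 2.16, 1.47, 1.67 and 1.68 in the hairpin 1, hairpin 2, Apc and Pik3ca tumours, against 2.40 in the control. The groups did not overlap, but its limma difference of −0.65 ± 0.32 did not pass (adjusted p = 0.461). Sc5d, the sterol desaturase, had levels of 3.14 and 3.64 with hairpins 1 and 2, 3.5 in the Apc tumour and 4.07 in the Pik3ca tumour, against 3.38 in the control. It was the only member lowest with hairpin 1, and the hairpin difference of −0.50 ran against that of the other 16 enzymes. Ebp, the sterol isomerase and a gene of the X chromosome, had levels of 5.42, 5.31, 4.80 and 5.13 in the hairpin 1, hairpin 2, Apc and Pik3ca tumours, against 5.04 in the control, a limma difference of 0.13 ± 0.31 (adjusted p = 0.891).

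Msmo1, the methylsterol oxidase, ranged from 5.15 in the Apc tumour to 6.15 in the Pik3ca tumour, against 5.27 in the control. Nsdhl, the X-linked decarboxylating dehydrogenase, ranged from 1.29 to 2.10, against 1.84, and Tm7sf2, a sterol reductase, from 3.08 to 3.62, against 3.61. Dhcr7, the last reductase of one route to cholesterol, had levels of 1.22, 0.08, 0.63 and 1.14 in the hairpin 1, hairpin 2, Apc and Pik3ca tumours, against 0.65 in the control (singled out after its values were seen). The Apc tumour and the control were nearly level for Dhcr7, with hairpin 2 below and the other 2 tumours above them.

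The regulators included the member with the widest spread. Insig1, the feedback gene, had levels of 2.02 with hairpin 1, −0.25 with hairpin 2, 0.65 in the Apc tumour and 1.80 in the Pik3ca tumour, against 0.66 in the control. Hairpin 1 and Pik3ca were 2.56-fold and 2.21-fold above the control, Apc was at its level, and hairpin 2 was 1.87-fold below it. The limma difference of 0.40 ± 0.94 had the largest standard error of the 35 members (adjusted p = 0.886). It became 0.08 without hairpin 1, 0.15 without Pik3ca and 0.83 without hairpin 2. Insig2, the second Insig protein, stayed between 2.09 (Apc) and 2.72 (hairpin 1), with 2.67 in hairpin 2 and 2.51 in the Pik3ca tumour, against 2.48 in the control.

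Scap, the escort of the SREBPs, had levels of 2.70, 2.75, 2.55 and 2.72 in the hairpin 1, hairpin 2, Apc and Pik3ca tumours, against 3.31 in the control. All 4 tumour-derived arrays lay within 0.20 log2 of each other and below the control. The limma difference of −0.63 ± 0.21 had the lowest adjusted p of the members and did not pass (adjusted p = 0.332, unadjusted p = 0.0296). Srebf2, which encodes the SREBP that mainly drives sterol genes, was above the control on all 4 tumour-derived arrays, with 1.79, 1.53, 1.25 and 1.67 in the hairpin 1, hairpin 2, Apc and Pik3ca tumours, against 1.01 in the control (limma difference 0.55 ± 0.28, adjusted p = 0.470). Srebf1, which encodes the SREBP proteins that mainly drive fatty acid genes, overlapped the control, with 4.33 to 5.03 in the tumour-derived arrays, against 4.68 (limma difference 0.06 ± 0.34, adjusted p = 0.960). Stard4, a carrier of cholesterol between membranes, had 3.30, 2.57, 3.24 and 3.39 in the hairpin 1, hairpin 2, Apc and Pik3ca tumours, against 2.60 in the control. On this probe hairpin 2 lay at the control's level and the other 3 above it (limma difference 0.52 ± 0.38, adjusted p = 0.6). On its other probe hairpin 2 (−0.34) and Apc (−0.37) were nearly level and above the control (−0.70). Hairpin 1 (0.54) and Pik3ca (0.65) were higher there.

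**Figure D2:**
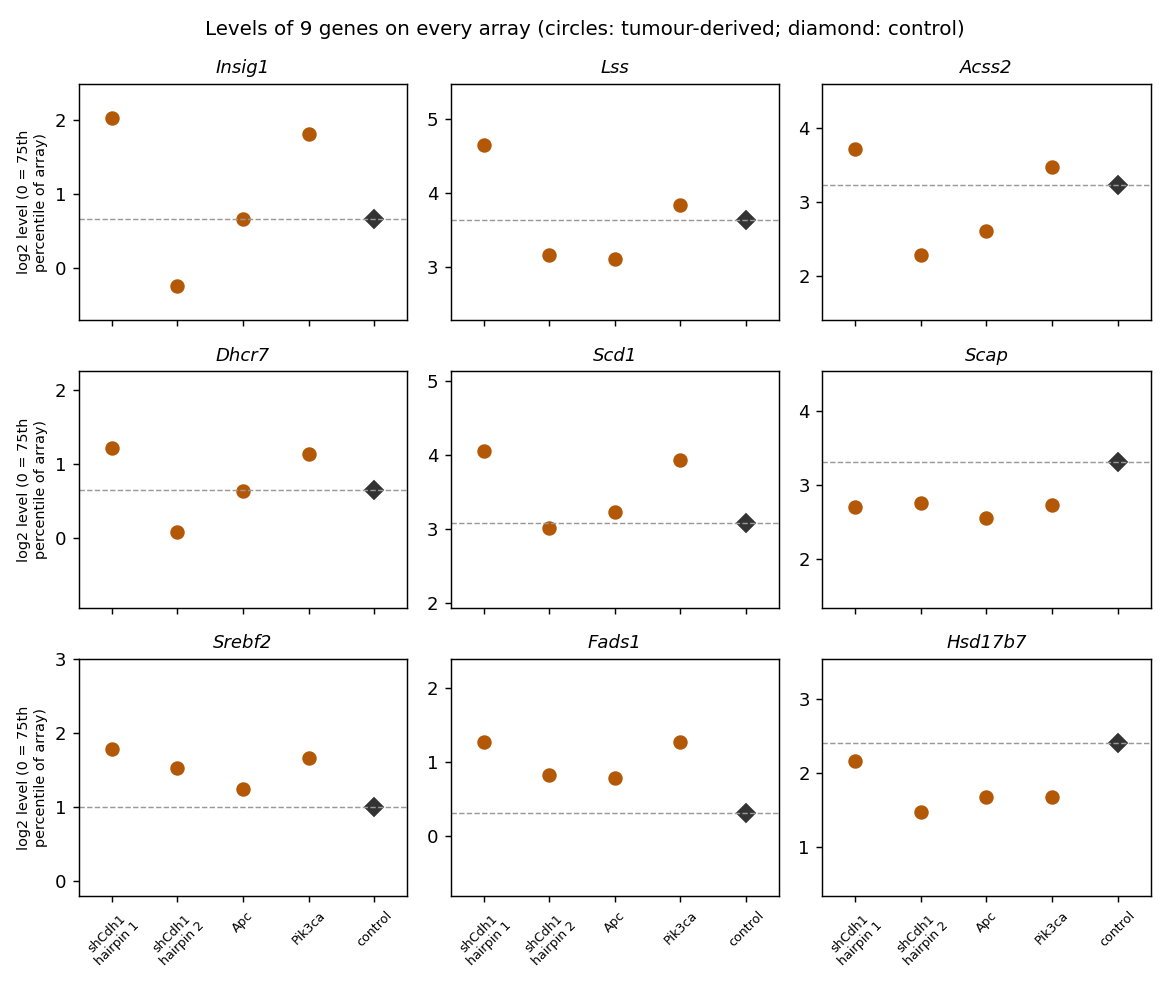
Log2 level of 9 members on every array, with 0 at the 75th percentile of the array; circles are the 4 tumour-derived arrays, the diamond and the dashed line are the control, and each panel spans the same number of log2 units. Insig1 ranged from −0.25 to 2.02 over the tumours around a control of 0.66, while Scap stayed between 2.55 and 2.75 below a control of 3.31.

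In the fatty acid branch the median difference from the control was 0.50 with hairpin 1, 0.14 with hairpin 2, −0.10 in the Apc tumour (0.02 after quantile normalization) and 0.48 in the Pik3ca tumour. All 12 genes were above the control with hairpin 1 (beside 56.2% of all genes) and 10 in the Pik3ca tumour (83.3%, beside 54.3%). With hairpin 2 there were 7 (58.3%, beside 56.2%) and in the Apc tumour 5 (41.7%, beside 49.3%). Over the 4 tumour-derived arrays together the median was 0.25, with 8 genes above (66.7%, beside 55.4% of all genes) and 4 below the control. Whether the branches differ from each other in this was not tested.

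The genes that supply acetyl-CoA and reducing power split. Acly, the ATP citrate lyase, was above the control on all 4 tumour-derived arrays, with 4.52 to 5.11, against 4.37 (limma difference 0.45 ± 0.30, adjusted p = 0.572). Me1, the cytosolic malic enzyme that makes NADPH, had 6.22, 5.86, 5.80 and 6.20 in the hairpin 1, hairpin 2, Apc and Pik3ca tumours, against 5.54 in the control, with no overlap (limma difference 0.48 ± 0.27, adjusted p = 0.512). Acss2, which activates acetate, instead had 3.71, 2.28, 2.60 and 3.47 in the same tumours, against 3.22 in the control (singled out after its values were seen). It thus stood on both sides of the control (limma difference −0.21 ± 0.63, adjusted p = 0.913).

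The enzymes that build the chain overlapped the control. Acaca, the cytosolic acetyl-CoA carboxylase that makes malonyl-CoA, ranged over 2.38 to 2.56, against 2.46 in the control, and Fasn, the fatty acid synthase, over 4.75 to 5.44, against 5.36. Acacb, the mitochondrial carboxylase whose malonyl-CoA restrains fatty acid oxidation, had 2.61, 1.93, 1.55 and 1.79 in the hairpin 1, hairpin 2, Apc and Pik3ca tumours, against 2.39 in the control, a limma difference of −0.42 ± 0.44 (adjusted p = 0.725). Hairpin 1 alone was above the control for Acacb, and its other probe differed from the control by −0.05. Elovl6, an elongase of saturated chains, ranged over 2.28 to 2.79, against 2.48.

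The desaturases and the elongase of polyunsaturated chains included the largest difference from the control among the probes used. Fads1, a desaturase of polyunsaturated fatty acids, had 1.27, 0.82, 0.79 and 1.27 in the hairpin 1, hairpin 2, Apc and Pik3ca tumours, against 0.31 in the control. All 4 were above the control, and the limma difference was 0.73 ± 0.30 (adjusted p = 0.398). With the mean of all probes it was 0.58, below Elovl5 at 0.82, and the further Fads1 probe put Apc at −4.57, against −4.49 in the control. Elovl5 had 3.52, 3.51, 3.25 and 3.67 in the same tumours, against 3.02 in the control (limma difference 0.47 ± 0.25, adjusted p = 0.485), and its other probe differed by 1.17. Fads2, the partner desaturase of Fads1, stood lower, with 1.18 to 1.94 in the tumour-derived arrays, against 1.89 in the control. Scd1, a stearoyl-CoA desaturase that makes monounsaturated chains, had 4.05, 3.01, 3.23 and 3.94 in the hairpin 1, hairpin 2, Apc and Pik3ca tumours, against 3.08 in the control. Hairpin 2 and Apc were thus close to the control for Scd1 and the other tumours higher (limma difference 0.47 ± 0.49, adjusted p = 0.718). Its paralogue Scd2 ranged from 7 in Apc to 7.78 in hairpin 1 and Pik3ca, against 7.12.

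**Figure D3:**
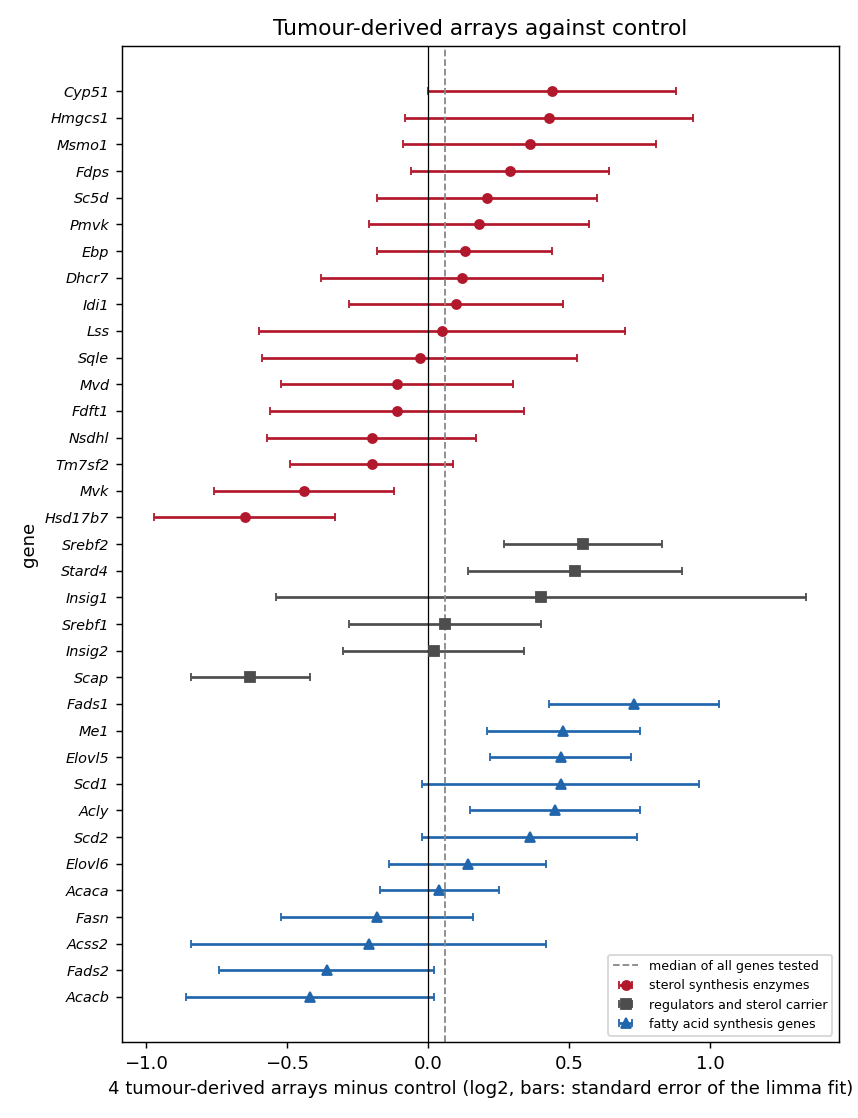
Difference of the 4 tumour-derived arrays from the control (horizontal axis, log2, points with standard errors of the limma fit) for the 35 members, grouped by branch and sorted within it; the dashed line is the median of all genes, 0.06. The points lie between −0.65 and 0.73, and the error bar is widest for Insig1 (0.94).

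Past a 2-fold difference from the control there were 2 members with hairpin 1 (Lss and Insig1, 5.71% of members, beside 8.69% of all genes higher by that much), 0 with hairpin 2 (beside 11% of all genes), 0 in the Apc tumour (beside 11.3%) and 1 in the Pik3ca tumour (Insig1, 2.86%, beside 12.1%). No member was at least 2-fold below the control on any array, beside 8.64%, 8.34%, 6.49% and 10% of all genes with hairpin 1, hairpin 2, Apc and Pik3ca. In either direction such differences were seen in 17.3%, 19.4%, 17.8% and 22.1% of all genes on these arrays, and they have no replicate check.

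The arrays were then compared in 2 pairs that share a slide and no array with each other: hairpin 1 with hairpin 2, and Pik3ca with Apc. The pairs were chosen after the values were seen, and with 1 array on each side no test was made. Hairpin 1 was above hairpin 2 for 32 of 35 members (91.4%), beside 50.8% of all genes. The exceptions were Sc5d (−0.50), Acaca (−0.07) and Scap (−0.05). The median difference was 0.70 for the sterol enzymes, 0.30 for the regulators and 0.44 for the fatty acid genes, beside 0.01 for all genes. At least 2-fold higher with hairpin 1 were Insig1 (4.80-fold), Lss (2.79-fold), Acss2 (2.71-fold), Dhcr7 (2.22-fold) and Scd1 (2.06-fold), which is 14.3% of members, beside 5.31% of all genes, and no member was at least 2-fold lower, beside 7.91%.

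In the Pik3ca tumour 35 of 35 members were above the Apc tumour, beside 54% of all genes. The median difference was 0.57 for the sterol enzymes, 0.42 for the regulators and 0.50 for the fatty acid genes, beside 0.04 for all genes. The members at least 2-fold higher were Sqle (2.26-fold), Insig1 (2.23-fold), Hmgcs1 (2.10-fold) and Msmo1 (2.00-fold), 11.4% of members, beside 5.61% of all genes, and none was at least 2-fold lower, beside 8.45%. The smallest difference was that of Hsd17b7, at 0.01. Higher in both pairs were 32 members, beside 31.1% of all genes. Insig1 was the 1 member past 2-fold in both pairs.

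**Figure D4:**
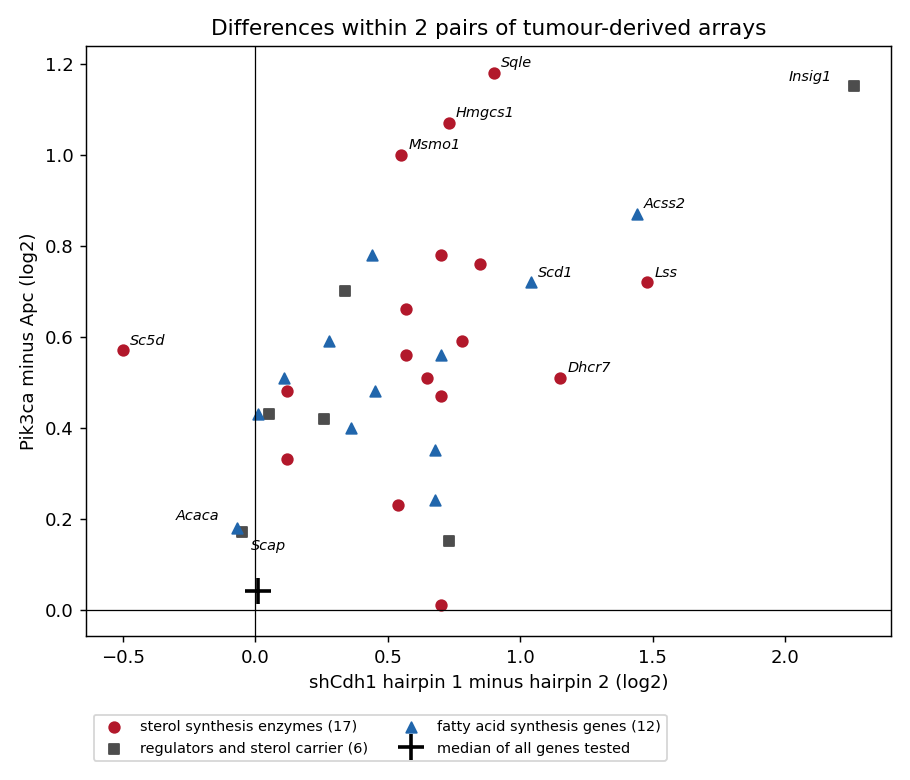
Hairpin 1 minus hairpin 2 (horizontal axis, log2) against Pik3ca minus Apc (vertical axis, log2) for the 35 members, coloured by branch; the cross is the median of all 17583 genes tested (0.01 and 0.04). Of the 35 points, 32 lie right of 0 and 35 above 0, and Insig1 lies farthest right.

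Other probes of the same genes showed the same order. Of 23 further probes for 19 members, all well above background, 21 were higher with hairpin 1 than with hairpin 2 and 23 were higher in Pik3ca than in Apc, while 20 were above or below the control as the probe used was. For Lss and Acss2 the further probes gave hairpin differences of 1.52, 1.01 and 1.59. For Hsd17b7 the further probe gave a difference from the control of −0.74.

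The spread within the shCdh1 group, which joins different hairpins, bears on the comparison with the control. For 26 of 35 members (74.3%) the hairpins of the shCdh1 group differed from each other by more than the mean of the 4 tumours differed from the control, beside 45.5% of all genes. When shCdh1 was compared with the Apc and Pik3ca tumours together, 0 of 35 members passed in limma (lowest adjusted p = 0.99), 0 genes of the array passed, and 0 members had an unadjusted p below 0.05, beside 4.58% of all genes. Both shCdh1 arrays were above both others for Mvk, Ebp, Insig2 and Acacb (11.4% of members, beside 20.2% of all genes) and below both for none (beside 13.1%). The largest of these differences was that of Acacb, at 0.60 ± 0.32, which became 0.26 without hairpin 1, 0.94 without hairpin 2 and 0.39 with the mean of all probes. Here genotype and slide cannot be told apart.

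Related lists showed how far the pattern extended, and no gene of theirs passed in limma in the comparison of the 4 tumours with the control. In that comparison 55.4% of all genes were above the control. Of 12 other sterol synthesis and SREBP pathway genes, 6 were above and 6 below the control (median 0.05), and their median difference was 0.22 between the hairpins and 0.05 between Pik3ca and Apc. They include Ggps1, the geranylgeranyl diphosphate synthase (0.43 ± 0.20, adjusted p = 0.433), and Mylip, a ubiquitin ligase that removes lipoprotein receptors (0.50 ± 0.48, adjusted p = 0.697). Of 17 sterol transport, storage and LXR genes, 8 were above and 9 below the control (median −0.02). Nr1h3, which encodes the oxysterol receptor LXRα, had −3.41, −2.89, −3.28 and −3.76 in the hairpin 1, hairpin 2, Apc and Pik3ca tumours, against −1.39 in the control (limma difference −1.95 ± 0.37, adjusted p = 0.222). Soat2, a sterol esterifying enzyme, differed by −0.84 ± 0.39, and the sterol exporters Abcg1 and Abcg8 by 0.83 ± 1.44 and 0.63 ± 0.31.

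Of 26 other fatty acid and glyceride synthesis genes, 9 were above and 17 below the control (median −0.27). The members named by the size of their difference were Pgd (−1.01 ± 0.54) and Idh1 (−0.95 ± 0.45), both sources of NADPH, Hacd3, a dehydratase of chain elongation (−0.77 ± 0.22), and the elongase Elovl7 (−0.73 ± 0.38). Of 19 fatty acid oxidation genes, 4 were above and 15 below the control (median −0.34). They include Ehhadh, a peroxisomal oxidation enzyme (−1.5 ± 0.27, adjusted p = 0.222), Ppara, the receptor that drives oxidation genes (−1.45 ± 0.62), and Acaa2, the mitochondrial thiolase (−1.03 ± 0.31). The median of the oxidation list was below the control on each tumour-derived array (−0.60 to −0.24). Of its 19 genes, 9 were below the control on all 4 arrays (beside 24.4% of all genes) and 1 was above on all 4 (beside 30.2%).

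**Figure D5:**
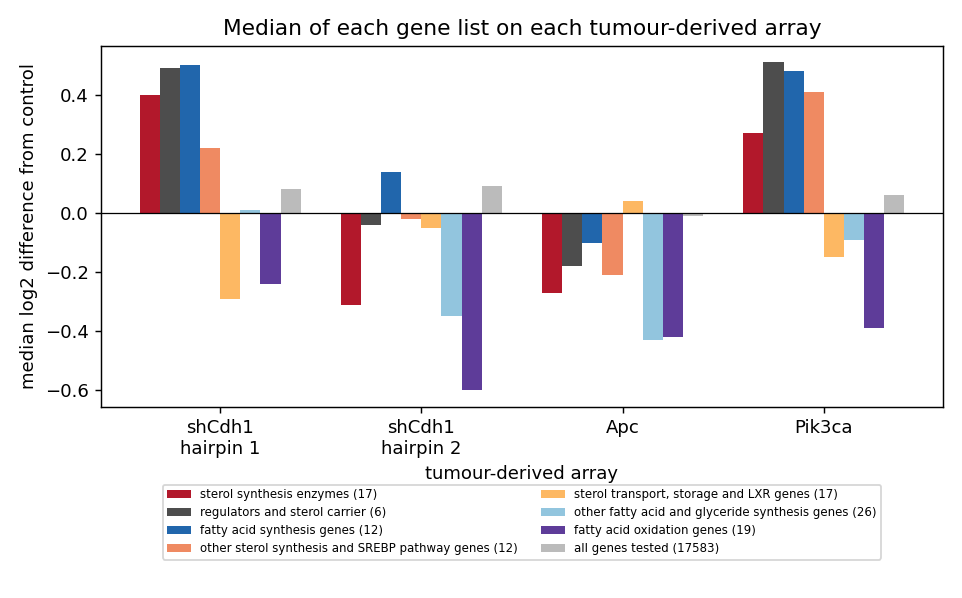
Median log2 difference from the control (vertical axis, bars from 0) of each gene list on each tumour-derived array, with the number of genes measured in brackets and all genes in grey. The sterol enzymes (red) were at 0.40 and 0.27 on the hairpin 1 and Pik3ca arrays and at −0.31 and −0.27 on the hairpin 2 and Apc arrays.

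Markers of lipid-rich cells were examined because such cells express many of these genes. The summed level of 9 adipocyte markers was 1.40 with hairpin 1, 0.23 with hairpin 2, 0.64 in Apc and 0.96 in Pik3ca, against 1.67 in the control, with 6, 6, 7 and 6 of the 9 well above background in these tumours and 5 in the control. Among the defining ones, Adipoq was well above background in Apc alone, and Plin1 and Cfd on no array. The summed level of 8 sebocyte markers was 7.50, 6.65, 6.51 and 6.83 in the hairpin 1, hairpin 2, Apc and Pik3ca tumours, against 7.26 in the control, with 6 of 8 above background on every array and Awat1 and Dgat2l6 on none. Both sums were thus highest with hairpin 1 and in Pik3ca among the tumours, as most members were, and their part in the pattern was not tested. A summed level adds unlogged signals, so the brightest marker weighs most. Cidec made up most of the adipocyte sum on every array, and Fabp5 most of the sebocyte sum, so these orders are largely theirs. Of these markers, Fabp5, a fatty acid-binding protein of epithelia, had 7.26, 6.13, 5.84 and 6.34 in the same tumours, against 6.65 in the control, and Cidec, a lipid droplet protein, had 1.1, −0.50, 0.07 and 0.32, against 1.16. Other markers of the same lists were lower with hairpin 1 than with hairpin 2, namely Lpl (by a difference of −1.39), Mc5r (−0.49), Mgst1 (−0.19), Plin2 (−0.15) and Plin4 (−0.14), and Mgst1 was also lower in Pik3ca than in Apc (−0.14). Summed levels of 9 fibroblast markers (−3.19 to −1.85, against −3.53 in the control), 9 leukocyte markers (4 to 4.39, against 3.55) and 7 endothelial markers (−2.74 to −2.12, against −1.76) had that order for the endothelium only. Most of the leukocyte sum came from Cd68 (3.03 to 3.84, against 2.51) and Itgam (2.06 to 2.56, against 2.06). Ptprc was at −6.10 to −4.63, against −6.78, and Adgre1, Tyrobp and Lyz2 were well above background on no array. Emcn was the brightest endothelial marker in the control (−2.54) and lay at −8.30 to −7.99 in the tumours. The summed level of the 16 gastric epithelial markers was also highest with hairpin 1 and in Pik3ca among the tumours. It was 9.75, 9.36, 9.57 and 9.68 in the hairpin 1, hairpin 2, Apc and Pik3ca tumours, against 9.99 in the control. Single markers of this list were divided. Cldn18, Tff1, Tff2, Gkn2, Gkn3, Muc6, Pgc, Sox2 and Gata4 were lower in Pik3ca than in Apc. Cdh1, Epcam, Krt8, Krt18, Krt19, Gkn1 and Muc5ac were higher. In such bulk samples fewer cells of a type and less RNA per cell cannot be told apart.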

How the data were processed

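Labelled cRNA from 0.2 µg of total RNA was hybridised to 1 array per sample, per the labels' protocols. The submitters' processing notes name Agilent Feature Extraction 11.0.1.1. In the scanner files as deposited, each spot's processed signal is an intensity that was background-subtracted and detrended but not normalized between arrays, per the file headers. The authors also deposited a table of log2 values. Tumour-minus-control differences taken from it matched those of the scanner values over 53335 probes (slope 1, correlation 1), so its scale and direction are known, while the per-probe baseline is not. The medians of its columns were 0.0738, 0.0312, −0.0796 and 0.0225 for hairpin 1, hairpin 2, Apc and Pik3ca, against −0.0572 for the control.

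Levels were computed as log2 processed signal minus the array's 75th percentile over 59305 non-control spots. Control spots and 78 to 114 outlier spots per array were left out, no spot was saturated, and 61.8% to 65.3% of spots were well above background. Replicate spots were averaged, and of 56605 probes 32 lacked a usable value and were dropped. Names came by unversioned accession from RefSeq's genes of GRCm38.p6 (34549 probes with 1 symbol, 22024 with none), and no positions are given because the array design uses another build. Testing covered the 17583 genes that had any probe well above background on 1 or more arrays.

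Tests were two-sided moderated tests of limma 3.58.1 (R 4.3.3; lmFit, then eBayes; Benjamini-Hochberg over all genes; threshold 0.05), which was tested on simulated data. The fits had 3 residual degrees of freedom for all tumours against the control, 1 for single genotypes and 2 among tumours, and lone arrays are assumed to vary like the others. The number of arrays limits the precision. An exact permutation test could not go below p = 0.2 for 4 arrays against 1. Alternatives were normexp background (offset 50, on median spot signal, since mean signal is not among the columns used), quantile normalization, the authors' table, other filters, probe averaging, slide as a block, 1.5-fold and leaving out each array.

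The members and lists were chosen with earlier results of these data known. All members were named. Values on every array were given for members at least 2-fold from the control, the 8 largest all-tumour differences, and the 5 largest between shCdh1 and the other tumours. Up to 4 genes were named per further list, and some that the rule picks are not reported here.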

Additional observations from a re-analysis of the deposited data

How the results depend on the processing

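The count of genes past the threshold for the 4 tumours against the control was 21. It became 48 with normexp background, 7 with genes well above background on all arrays, and 0 with slide as a block. Leaving out 1 array gave 0 to 19, with 0 without hairpin 1, hairpin 2 or Pik3ca and 19 without Apc. Members past 2-fold from the control on the hairpin 1 array fell to 1, against 2 as reported, with quantile normalization and with the authors' table. On the Pik3ca array they became 3, against 1, with the mean of all probes. At 1.5-fold the counts were 15 with hairpin 1, 5 with hairpin 2, 8 in Apc and 16 in Pik3ca. The Lss difference from the control turned to −0.02 with quantile normalization and ran from −0.27 without hairpin 1 to 0.24 without Apc when 1 array was left out. Its difference between shCdh1 and the other tumours ran from −0.31 without hairpin 1 to 1.17 without hairpin 2. None of these passed. The cause was not tested, beyond the smaller number of arrays or genes in the fits that leave some out.

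The other 368 recomputed values were classed as unchanged. Differences of single genes kept their direction and side of the threshold, and counts stayed within 1.5-fold. List medians in the limma comparisons moved by less than a standard deviation, so a median could still change sign. That deviation was taken over the tumours or, for single genotypes against the control, over the hairpins. Members higher with hairpin 1 than with hairpin 2 numbered 31 to 32, and in Pik3ca than in Apc 33 to 35. The sterol median for all tumours ranged over −0.06 to 0.23, and for shCdh1 against the control it was −0.31 without hairpin 1 and 0.40 without hairpin 2. Between shCdh1 and the other tumours, leaving out 1 array also moved Sc5d over −0.69 to −0.11, Insig2 over 0.18 to 0.61 and Ebp over 0.24 to 0.57, and against the control Scd1 over 0.31 to 0.66, while Stard4 was 0.33 with slide as a block. No paired analysis was possible because the labels pair no tumour-derived array with the control, and the numbers of the shCdh1 arrays are those of the hairpins. The control, Apc and Pik3ca groups have a single array each, so their own spread is unknown.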
